A study of Mus musculus with 2 samples.

Results

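The PIWI and Tudor genes of the piRNA pathway were examined in mouse testis after exposure to bisphenol A (BPA), a plastics monomer with weak estrogen-like activity. The 10 genes, chosen by symbol and not by their values, were Piwil1, Piwil2, Piwil4, Mael, Tdrd1, Tdrd6, Tdrd9, Ddx4, Asz1 and Mov10l1, and all 10 had a row with a value among the 44002 rows of the deposited table. Both groups were BALB/c mice at postnatal day 45. One group had no treatment in its label and is called the control, and the other was labelled as exposed to BPA; the sources used here give no dose, route or duration. Material of 3 samples was mixed for each group and sequenced as 1 library, so no spread within a group was measured and no test between the conditions was possible. The title of the series speaks of the spliceosome and of meiosis, and piRNA genes are used in the meiotic cells of this tissue.

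PIWI proteins are the germ line branch of the Argonaute family. They carry small RNAs called piRNAs, which lead them to transposon transcripts and other RNAs. Long precursor RNAs are unwound and cut at the surface of mitochondria, and Tudor domain proteins hold the PIWI proteins in the neighbouring germ granules by binding methylated arginines. In male mice the pathway runs in separate waves. In fetal prospermatogonia piRNAs guide DNA methylation of transposons, and in pachytene spermatocytes a far larger set of piRNAs is made that persists into round spermatids. By textbook knowledge Piwil1 and Tdrd6 belong to the pachytene wave and Piwil4 to the fetal wave, whereas the other 7 genes serve in both.

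In the 45-day testis the pachytene genes were abundant and the fetal gene was nearly absent, in the control library and in the BPA library alike. Piwil1, which encodes MIWI, stood at 504 CPM (counted reads scaled to a common library total) in the control library and 532 CPM in the BPA library. Piwil4, which encodes MIWI2, the nuclear PIWI protein of fetal germ cells, was under 1 CPM in both. None of the 9 genes at 1 CPM or more was 2-fold apart between the libraries, where 3.28% of all 19389 genes at that floor were. None was 1.5-fold apart either, against 9.64% of all genes. Both shares include many genes at lower levels than the 9, where ratios vary more. A mean of 10 CPM, which all 9 genes exceeded, was reached by 9979 genes, and 0.671% of these were 2-fold apart. The ratios of BPA over control ran from 0.900 in Ddx4 to 1.13 in Asz1.

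The 250 bases before the gene are shown here for Mael, Asz1 and Piwil4, which had the highest level per length of the 10 genes, the lowest among those at 1 CPM or more, and a level under 1 CPM. The sequences come from RefSeq on GRCm38.p6, 5′ to 3′ on the strand of the gene, with CpG dinucleotides in capitals. CpG-dense promoters are a known trait of many germ line genes, which somatic cells hold silent by DNA methylation. All 3 genes lie on the minus strand, and the windows are chr1:166238745-166238994 for Mael, chr6:18109062-18109311 for Asz1 and chr9:14740673-14740922 for Piwil4.
Mael: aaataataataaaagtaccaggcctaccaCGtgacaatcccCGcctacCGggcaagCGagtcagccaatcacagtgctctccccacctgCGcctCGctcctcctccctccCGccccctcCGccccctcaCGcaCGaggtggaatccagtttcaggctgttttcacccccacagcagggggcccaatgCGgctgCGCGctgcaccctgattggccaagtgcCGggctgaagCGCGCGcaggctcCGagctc
Asz1: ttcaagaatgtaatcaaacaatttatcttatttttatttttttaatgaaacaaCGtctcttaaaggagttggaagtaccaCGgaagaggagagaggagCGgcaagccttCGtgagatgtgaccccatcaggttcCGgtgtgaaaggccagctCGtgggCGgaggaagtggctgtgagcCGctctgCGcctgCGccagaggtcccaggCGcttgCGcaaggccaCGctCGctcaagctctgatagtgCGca
Piwil4: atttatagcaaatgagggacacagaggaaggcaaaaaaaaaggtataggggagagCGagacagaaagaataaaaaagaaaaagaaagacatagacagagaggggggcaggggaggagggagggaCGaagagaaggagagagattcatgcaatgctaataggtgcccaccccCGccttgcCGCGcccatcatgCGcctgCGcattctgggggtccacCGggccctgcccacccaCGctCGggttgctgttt

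The window of Mael held 18 CpG and that of Asz1 15, against 10 for Piwil4. With the other windows the count did not follow the level. That of Tdrd9, a gene well above Piwil4 in level, held 8 CpG, and that of Ddx4, below Mael in level, held 31. RefSeq gives 11 windows before annotated starts for 8 of the 10 genes; Piwil2 and Tdrd6 were not matched. Of these 11 windows the 3 shown end where the gene as annotated begins, and the other 8 belong to starts further inside the gene and reach into it. The 11 windows had a median of 15 CpG, against 6 over all 32851 windows of the annotation. The motif CAACNG, a core of sites bound by MYB factors, was searched on both strands. It occurred in 2 of the 11 windows, at starts inside Piwil1 and Piwil4, and in 29.3% of all windows. A match describes the letters of the window only. The 10 genes lie on 10 different chromosomes.

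Levels of different genes are given per kilobase of merged exons, since a longer transcript yields more fragments. The order of the genes was almost the same in both libraries, as the plot of levels per kilobase shows. Mael, an HMG-box protein needed for transposon silencing and for handling piRNA precursors, stood first, at 788 CPM per kilobase in the control library and 789 in the BPA library. Ddx4, the germ cell RNA helicase also called VASA, followed at 194 and 175. Tdrd6 and Piwil1 came next and exchanged places: Tdrd6 stood at 123 CPM per kilobase in the control library and 122 in the BPA library, and Piwil1 at 116 and 122. No spread between samples was measured, so this exchange cannot be set against one. Per length, Mael was 6.81 times as high as Piwil1 in the control library and 6.46 times in the BPA library.

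**Figure D1:**
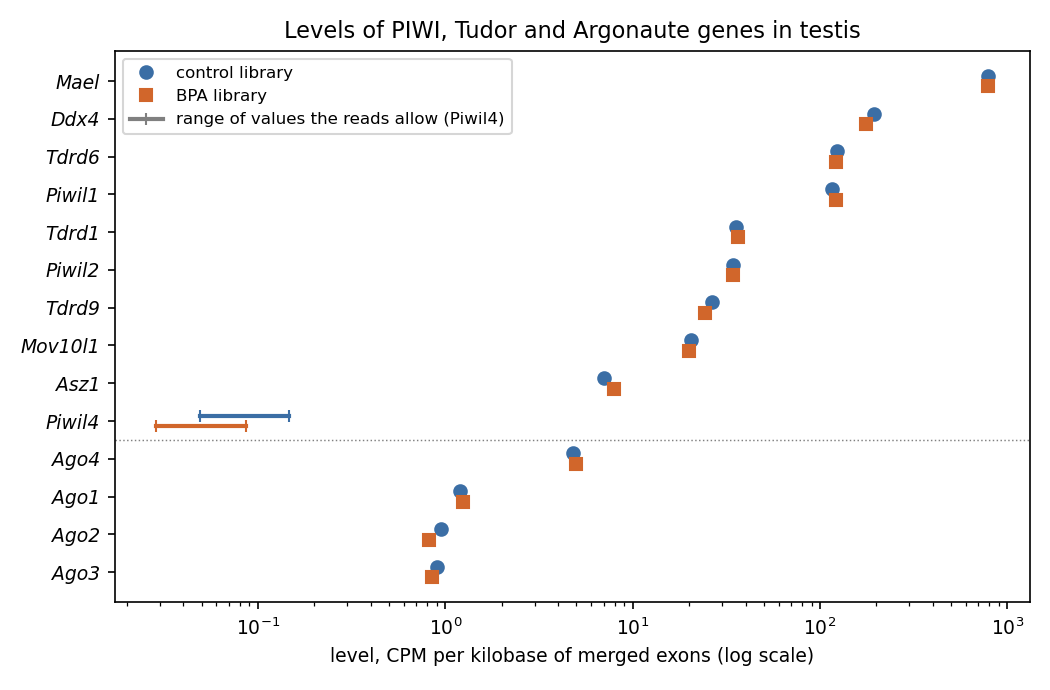
Level of each gene in CPM per kilobase of merged exons (log axis) in the control library (circles) and the BPA library (squares); for Piwil4 a bar spans the values its reads allow. Mael sits highest near 788, Piwil4 lies below all the other genes, and the Argonaute genes under the dotted line lie between 0.821 and 4.99.

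The remaining genes were lower per length. Tdrd1, whose protein anchors MILI in the cement between mitochondria, stood at 35.5 CPM per kilobase in the control library and 36.7 in the BPA library. Piwil2, which encodes MILI itself, stood at 34.1 and 34.3. These neighbours in the order differed by a ratio of 1.04 in the control library and 1.07 in the BPA library. Tdrd9, a helicase with a Tudor domain that works with MIWI2, stood at 26.4 and 24.2. Mov10l1, the helicase that feeds precursors into piRNA processing, stood at 20.4 and 19.9. Asz1, a scaffold on the mitochondrial outer membrane, was the lowest gene at the floor, with 6.99 and 7.92. Asz1 thus lay 113-fold below Mael in the control library and 99.6-fold below it in the BPA library.

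Among the PIWI paralogs the adult testis held chiefly Piwil1 and Piwil2. Per length Piwil1 exceeded Piwil2 3.39-fold in the control library and 3.56-fold in the BPA library. Both also exceeded the Argonaute genes Ago1 to Ago4, the microRNA branch of the family. The highest of these, Ago4, stood at 4.81 CPM per kilobase in the control library and 4.99 in the BPA library, and Piwil1 was 24.0 and 24.5 times as high. Ago3, the lowest in the control library, stood at 0.904 there. The 4 Argonaute genes also lay within 2-fold between the libraries, as did most genes at the floor, of which 3.28% were 2-fold apart. Parts of Ago2, 1.56% of its exon bases, overlap another gene.

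Piwil4 is listed at 0 in both libraries, because deposited values under 1 CPM are written as 0. The authors' deposited table nevertheless gives it a log2 fold change of -0.77, which holds information on its reads. Deposited values are whole multiples of the value of 1 read, and the only whole reads under 1 CPM with that fold change are 7 in the BPA library with 11 in the control library, 14 with 22, or 21 with 33. Piwil4 therefore stood between 0.263 and 0.789 CPM in the control library, and between 0.154 and 0.463 CPM in the BPA library. Per kilobase this is 0.0489 to 0.147 in the control library and 0.0286 to 0.0859 after BPA, the lowest level of the 10 genes. The ratio of 0.586 has a 95% counting interval of 0.193 to 1.66 on the smallest of these reads and 0.322 to 1.04 on the largest, so on any of them equal levels lie within counting error. Its exons overlap those of another gene over 137 bases, and without strand the source of reads there is uncertain.

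The pachytene genes differed little between the libraries. Piwil1 (gene ID 57749, chromosome 5 from 128736071 to 128755474 on GRCm38) was covered by 24145 reads after BPA and 21083 in the control. Scaled to CPM, it was 1.05-fold higher in the BPA library, with an exact (Clopper-Pearson) 95% counting interval of 1.04 to 1.07. Tdrd6 (210510, chromosome 17 from 43615334 to 43631846), a scaffold of the chromatoid body of spermatids, stood at 872 CPM in the control library and 862 CPM in the BPA library. Its ratio was 0.988, with an interval of 0.974 to 1.002. These intervals cover counting error only, and PCR copies are not independent molecules. In bulk tissue fewer cells of a type and less RNA per cell cannot be told apart.

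Of the genes that serve in both waves, Ddx4 and Tdrd9 leaned toward the control library and Asz1 toward the BPA library. Ddx4 (13206, chromosome 13 from 112598333 to 112652633) stood at 585 CPM in the control library and 527 CPM in the BPA library, a ratio of 0.900 (0.884 to 0.916). Among 677 genes with a mean level within 2-fold of its own, 5.32% lay at least as far from equal levels. Tdrd9 (74691, chromosome 12 from 111971488 to 112068854) stood at 143 CPM in the control library and 131 CPM after BPA, a ratio of 0.917 (0.884 to 0.951), and 19.2% of 2583 genes of like level lay as far. Asz1 (74068, chromosome 6 from 18050964 to 18109061) stood at 19.8 CPM in the control library and 22.4 CPM in the BPA library, a ratio of 1.13 (1.03 to 1.24). Of 5047 genes of like level, 30.6% lay as far as Asz1.

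The other genes of both waves were close to equal. Mael (98558, chromosome 1 from 166201385 to 166238744) stood at 1366 CPM in the control library and 1368 CPM in the BPA library, a ratio of 1.00 (0.990 to 1.01) on 57097 reads in the control. Piwil2 (57746, chromosome 14 from 70372477 to 70436898) stood at 180.3 CPM in the control and 181 CPM after BPA, a ratio of 1.00 (0.973 to 1.04). So MILI transcripts differed by less than their counting error at a depth of 7537 reads or more. Tdrd1 (83561, chromosome 19 from 56826171 to 56870012) stood at 193 CPM in the control and 199.7 CPM after BPA, a ratio of 1.03 (1.002 to 1.064). Mov10l1 (83456, chromosome 15 from 88982891 to 89055152) stood at 85.3 CPM in the control and 83.3 CPM after BPA, a ratio of 0.977 (0.933 to 1.02).

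Over the 9 genes at the floor the median log2 ratio of BPA over control was 0.0018, against 0.0041 over all genes at the floor; 5 lay above 0 and 4 below. Together they took 0.395% of the control library and 0.391% of the BPA library. The counting interval left out equal levels in 5 of the 9 genes, and in 48.9% of the 9979 genes whose mean level reached 10 CPM, which all 9 genes exceeded. Within that range of levels 0.671% of genes were 2-fold apart. The authors' deposited table calls none of the 10 genes, and only 28 of its 44002 rows in all. With so few rows called, a count of none tells little about these genes. For each of the 10 it gives a q-value of 0.99996, with p-values from 0.0872 for Ddx4 to 0.948 for Piwil2. Apart from Piwil4, exons of these genes overlap no other gene of the GENCODE annotation, and at most 0.138% of their 50-base words occur at another locus there. Overlap with genes annotated in RefSeq only was not checked.

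**Figure D2:**
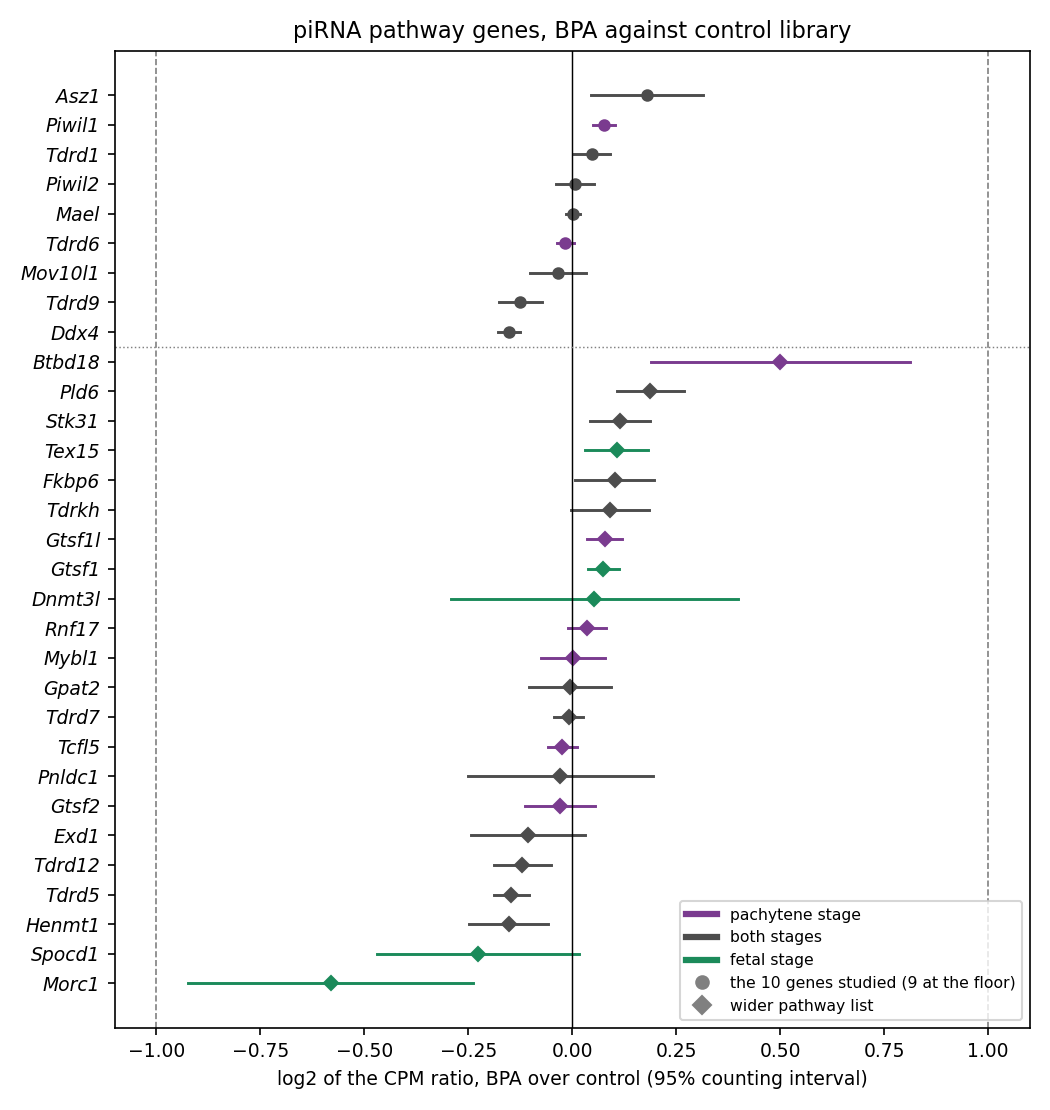
Log2 of the CPM ratio of BPA over control (x axis) with its 95% counting interval for the 9 genes at the floor (circles) and 22 further pathway genes (diamonds), coloured by stage; dashed lines mark 2-fold. All 31 points lie within the dashed lines, with ratios from 0.669 for Morc1 to 1.41 for Btbd18.

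The wider pathway was described from a list of 24 further genes, of which 22 were at the floor. None was 2-fold apart, beside 3.28% of all genes at the floor, so a count of none tells little for a list of this size. Of the 22, 11 lay above 0 and 11 below, and the median log2 ratio was -0.0024. The counting interval left out equal levels in 11 of the 22, beside 48.9% of the 9979 genes whose mean level reached 10 CPM. Some of the 22, such as Morc1 and Btbd18, lay below that level, so the shares are not of like genes. Dnmt3c was not analysed here, because no row matched it. Nanos2, a translational repressor of male germ cells, was under 1 CPM in both libraries. Its exons overlap those of Gm45058 over 49.0% of their bases, so its reads are uncertain without strand. Nanos2, Mybl1, Tdrkh and Exd1 are named outside the naming rule, after their values were seen.

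Of the 11 further genes used at both stages, 4 lay above 0 and 7 below. Tdrd7, a Tudor protein of the chromatoid body, was the highest per length of these, at 78.8 CPM per kilobase in the control library and 78.3 in the BPA library. Pnldc1, the exonuclease that trims piRNA ends, was the lowest at 2.93 and 2.87. Per length of the longest transcript Exd1 was the lowest instead, at 3.44 and 3.20, against 3.73 and 3.66 for Pnldc1. Pld6, the mitochondrial endonuclease of piRNA processing, had the largest log2 ratio in size among them, 0.19, at 54.1 CPM in the control library and 61.6 CPM in the BPA library. Its ratio was 1.14 (1.08 to 1.20). The exons of Tdrkh overlap those of Oaz3, an abundant spermatid gene, over 36.7% of their bases, so its reads are uncertain without strand.

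The 6 further pachytene genes also lay within 2-fold, 4 above 0 and 2 below, where 3.28% of all genes at the floor were 2-fold apart. Mybl1, which encodes the factor A-MYB that drives pachytene piRNA precursors, stood at 62.1 CPM in each library, a ratio of 1.00 (0.949 to 1.06). Gtsf1l, a paralog of the PIWI cofactor Gtsf1, was the highest of them at 249.8 CPM per kilobase in the control library and 264 in the BPA library. Btbd18, a nuclear factor for transcription of pachytene piRNA loci, was the lowest at 0.979 and 1.38. It stood at 3.44 CPM in the control library and 4.87 CPM in the BPA library, a ratio of 1.41 (1.14 to 1.76) on 144 and 221 reads.

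Among the 7 further genes assigned to the fetal stage, 5 were at the floor, and their levels were uneven. Gtsf1, the cofactor that PIWI proteins need for cutting, stood at 192 CPM per kilobase in the control library and 202 in the BPA library. Per length of merged exons this is within the range of the pachytene genes. Per length of the longest transcript Gtsf1 stood at 326 and 343, above all of them, the highest being Gtsf1l at 249.8 and 264. Morc1, which silences transposons in male germ cells, was the lowest at 0.635 and 0.425. It stood at 4.11 CPM in the control library and 2.75 CPM in the BPA library, a ratio of 0.669 (0.527 to 0.848) on 172 and 125 reads. Spocd1, a nuclear partner of MIWI2 in DNA methylation, stood at 6.99 and 5.97 CPM, a ratio of 0.855 (0.722 to 1.01). In the whole pathway, with both lists together, the median level in the control library was 86.5 CPM per kilobase over 8 pachytene genes, 22.2 over 18 genes of both stages and 2.17 over the 5 fetal genes at the floor. In the BPA library these medians were 84.9, 23.7 and 1.85. The lists were set by stage, so the order of the medians is a description, and the fetal median leaves out Piwil4 and Nanos2, which were under the floor.

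**Figure D3:**
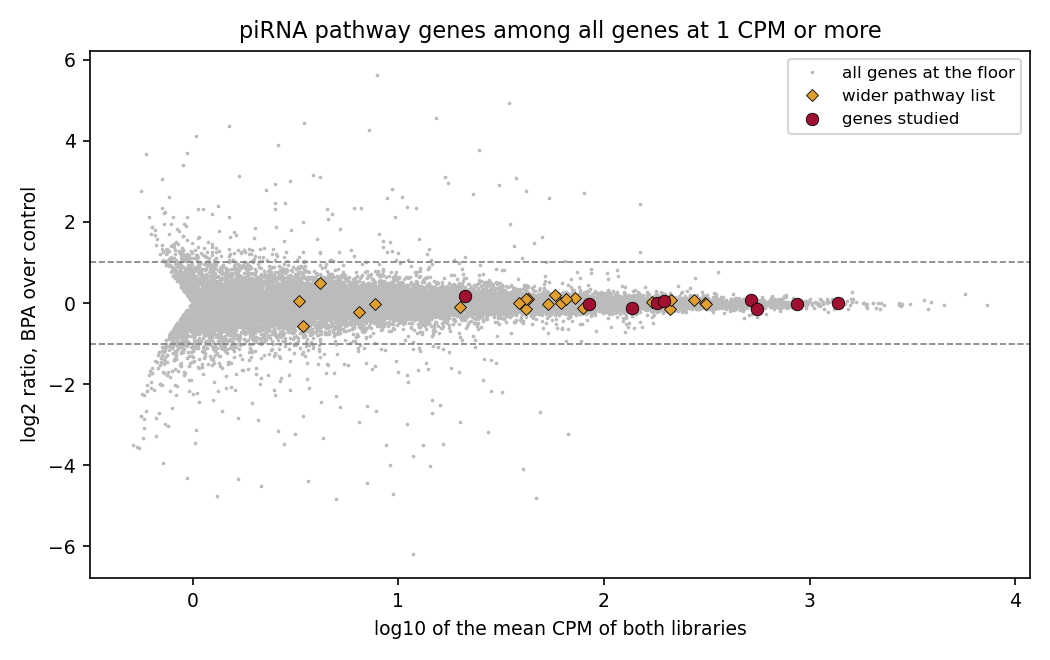
Log2 ratio of BPA over control (y axis, pseudocount of 0.1 CPM) against log10 of the mean CPM of both libraries (x axis) for 19389 genes (grey), the wider pathway list (diamonds) and the 9 genes at the floor (circles); dashed lines mark 2-fold. The 9 genes run along the middle of the cloud, from -0.15 for Ddx4 to 0.18 for Asz1.

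The libraries were of testis by their markers, and the median log2 ratio of each germ cell marker list lay near 0. Single germ cell markers had ratios of BPA over control from 0.772 for Tssk1 to 1.34 for Stra8. This range was wider than that of the piRNA genes studied at the floor, but both extremes lay at lower levels. Tssk1 stood at 6.96 CPM in the control library and 5.38 CPM in the BPA library, and Stra8 at 11.0 and 14.8 CPM. Asz1, the lowest of the genes studied at the floor, stood at 19.8 and 22.4 CPM. The marker lists also hold more genes. The further pathway genes ran wider still, from 0.669 for Morc1 to 1.41 for Btbd18, both at low levels. Summed over the table, the BPA library held 45162887 reads and the control library 41711330. The 11 spermatocyte markers mark the cells that make pachytene piRNAs. They summed to 4191 CPM in the control library and 4374 CPM in the BPA library, of which Ldhc alone held 3479 and 3679 CPM. Of the 11 markers 5 lay above 0 and 6 below, with a median log2 ratio of -0.05. The 8 round spermatid markers had a median of -0.04 and the 7 elongating spermatid markers 0.02, and the 10 spermatogonial markers 0.07. All 36 of these lay within 2-fold, where 3.28% of all genes at the floor were 2-fold apart. Markers of Sertoli cells (8 of 8, median 0.27) and of Leydig cells (7 of 7, median 0.16) lay above 0 without reaching 2-fold. Of the 6 adipose markers 4 were 2-fold or more lower in the BPA library, and their sum was 79.4 CPM in the control library and 25.4 CPM in the BPA library. Of the 4 epididymal markers, Lcn5, Lcn8 and Adam28 have a row without a value, and Lcn9 is listed at 0 in both libraries. The part of these cell types in the small differences of Ddx4, Tdrd9 and Asz1 was not tested.

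**Figure D4:**
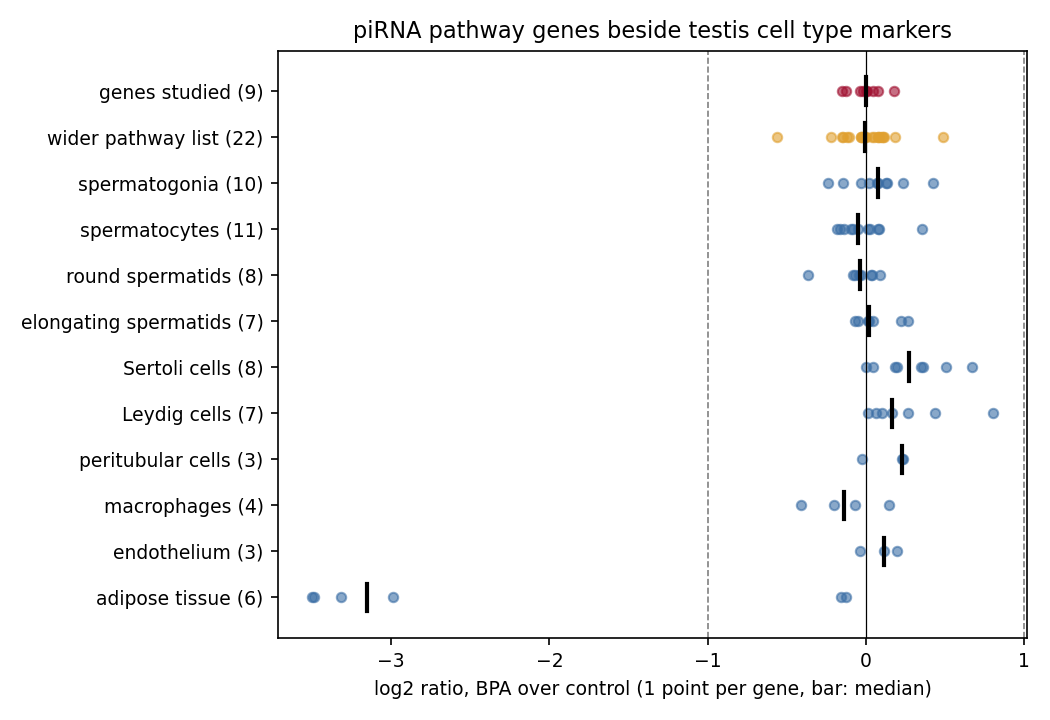
Log2 ratio of BPA over control (x axis) of each gene at the floor, 1 point per gene, with the median of each list as a bar and the number of genes in brackets; dashed lines mark 2-fold. The genes studied lie close around 0, Sertoli and Leydig markers lie above it, and 4 of the 6 adipose markers lie near -3.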

How the data were processed

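Poly(A) RNA of testis was sequenced from 2 pools, 1 control and 1 exposed to BPA, each mixed from 3 samples per the labels. No step that marks the strand is described in the labels' protocols. Per the submitters' processing notes, alignment and counting tools were HISAT2 2.0.4 and HTSeq 0.6.1, with mm10 as the build; the sources used here do not give the annotation, the scaling or the test behind the p-values. The authors deposited 1 table that pairs the CPM of both libraries with a log2 fold change and with p-values and q-values. Its CPM columns carry the name of read counts, yet these deposited values sum to 995266 and 997834, and values under 1 CPM are written as 0.

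Deposited CPM values above 0 are whole multiples, within 2.33e-10, of a step taken as 1 read, 0.0220 CPM for BPA and 0.0239 CPM for the control. The deposited log2 fold changes gave 1404 values that are listed as 0 beside a listed value in the other library. For genes at 0 in both, the pairs of whole reads that give the deposited log2 fold change were listed; all 9897 such rows with a fold change had at least 1 pair. A gene was at the floor with 1 CPM or more in the higher library, and called when its log2 ratio with a pseudocount of 0.1 CPM reached 2-fold. Ratios in the text use no pseudocount, and log2 ratios do. No count model was fitted. The size rule was tested on simulated reads that carry counting error only, so that test does not cover variation between samples or libraries. Analyses used Python 3.11.15, pandas 2.3.3, numpy 2.4.6 and scipy 1.17.1.

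Symbols and positions came from RefSeq on GRCm38, the build mm10 names, and exon lengths, overlaps and shared words from GENCODE on the same build, through gene IDs. The members, stage groups and lists were chosen with earlier results of these data known. Named from the wider list were genes past 2-fold, the 4 largest log2 ratios in size, and the highest and lowest level per kilobase of each stage. With 2 libraries no gene could be ranked by likeness of pattern. Alternatives covered scaling, pseudocount, floor, the fold required and transcript length.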

Additional observations from a re-analysis of the deposited data

How the results depend on the processing

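No paired analysis was possible because each group has 1 library. None of the 9 genes at the floor was called with either other scaling, a pseudocount of 1 CPM, a floor of 4 CPM, listed zeros taken as 0 or the 1.5-fold call, where 9.64% of all genes were. The same holds for the further pathway genes, of which 22 were at the floor and 21 at that of 4 CPM. The 9.64% is over all genes at the floor, many of them at lower levels than the 9 genes. The setting with no floor was run over all genes only. No member's log2 ratio moved by more than 0.0073. With scaling by the trimmed mean of log ratios (TMM) the median over the 9 genes was -0.0011 and with the median of ratios -0.0050, against 0.0018, so its sign and that of Mael depend on the scaling, as does that of Piwil2 with the median of ratios. Per length of the longest transcript, Tdrd9 stood at 29.7 and 27.3 CPM per kilobase in the control and BPA library and Asz1 at 8.44 and 9.56, and Piwil1 stood above Tdrd6 in both libraries. The background moved more. Over all genes 635 were called, 256 higher and 379 lower. These counts were 205, 82 and 123 with a pseudocount of 1 CPM, 183, 80 and 103 with a floor of 4 CPM, and 1870, 828 and 1042 at 1.5-fold. With no floor, on the authors' deposited fold changes, which hold no pseudocount, they were 4520, 1938 and 2582 of 29279 genes; this setting changes the floor and the ratio together. With listed zeros taken as 0, a setting chosen after seeing the data, they were 1623, 686 and 937. The cause of these shifts was not tested. At this depth the few reads of Piwil4 leave a wide counting interval on its ratio.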

Other observations

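Genes near the 10 piRNA genes on the chromosome were also read off, after the values of the 10 genes were seen. Within 1 Mb of their midpoints lay 224 neighbours at the floor, of which 6 (2.68%) were 2-fold or more apart, against 3.28% of all genes. Near 8 of the genes no neighbour was called. Near Tdrd9, 5 of 44 were, 4 lower and 1 higher in the BPA library. Of these 5 only Gm266 reached 4 CPM in either library. The others lay near the floor, where ratios vary more. Gm266 stood at 6.03 CPM in the control library and 2.31 CPM in the BPA library, and Gm46381 at 2.25 and 1.01 CPM. The midpoint of Gm46381 lies 4.72 kb from that of Tdrd9, within the span of Tdrd9. Whether their exons overlap in RefSeq was not checked, so without strand the source of its reads is uncertain. The phospholipase family gene Pld4 stood at 1.29 CPM in the control library and 0.0441 CPM in the BPA library. Gm40578 was lower in the BPA library as well, at 1.55 and 0.683 CPM, and A530016L24Rik was higher there, at 0.311 CPM in the control library and 1.499 CPM in the BPA library. Near Piwil4 the small RNA gene Scarna9 was called, at 1.05 and 0.154 CPM. These values are given as a description, with 1 library per group.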
